A study of Mus musculus with 4 samples.

Results

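CpG islands (CGIs) at the 5′ regions of protein-coding genes were examined in whole-genome bisulfite sequencing (WGBS) of mouse colonic epithelium. A CGI was a stretch in which 500-bp windows starting at a CpG held at least 25 CpGs, and a 200-bp bin belonged to a 5′ CGI when at least 100 bp of it lay in a CGI and its centre fell between 1000 bp upstream of the transcription start site (TSS) and the end of exon 1. This rule gave 49303 autosomal bins, of which 49052 held at least 2 CpGs and were tested, out of 4074587 bins tested in all and 150751 tested CGI bins. The bins belonged to 12441 of 21410 autosomal protein-coding genes (58.1%), with a median of 4 bins per gene and of 14 CpGs per bin, and 11481 of 29666 autosomal CGIs (38.7%) held at least 1 of them. The rule used no methylation value.

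The DNA came from mice labelled C57, from a cross of Lgr5-EGFP-CreER knock-in reporter mice, a strain backcrossed to C57BL/6 J, with wild-type C57 mice. Colonic intestinal stem cells (ISCs) were sorted as Lgr5-EGFP-positive, and differentiated cells as Lgr5-EGFP-negative and positive for the epithelial surface protein EpCAM, at birth (P0) and at postnatal day 21 (P21), around weaning. Each of the 4 groups (ISC P0, differentiated P0, ISC P21, differentiated P21) was 1 library from pooled mice, so there were no replicates. The pools were litters at P0 and reporter-positive offspring at P21. The paper does not say that the P0 litters were chosen for the reporter, so differentiated P0 may include cells of pups without it. Age therefore cannot be told apart from the pool, the library or this choice of offspring. Intervals and tests below compare libraries and cover at most counting error. Reads copied by PCR and not tagged with molecular identifiers can stem from the same molecule, and CpGs of 1 read are not independent. The libraries held between 1023427645 and 1188114423 calls (a call is 1 cytosine of a CpG read once), and the median 5′ CGI bin had 185 calls in ISC P0, 524 in differentiated P0, 221 in ISC P21 and 427 in differentiated P21. Promoters of marker genes were read within 500 bp of the TSS: 7 of 8 epithelial markers lay between 0% and 6.48% in all libraries (Krt20 lay between 50% and 56.2%), all 5 immune markers between 44.6% and 91.2%, and both endothelial markers between 48.7% and 75.5%. Of 3 mesenchymal markers, Col1a1 lay between 29.4% and 40.9%, while Col1a2 and Vim did not exceed 3.24%. The stem cell markers Lgr5, Ascl2, Smoc2 and Axin2 lay between 0.234% and 5.34% over ISC and differentiated libraries alike, so they did not tell the populations apart. No immune or endothelial marker held a 5′ CGI bin, while Cdh1, Krt8, Krt18, Cdx1 and Cdx2 did, so the classes also differed in CpG islands. Methylation of a promoter is not a measure of its expression.

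CpG islands are the exception in a genome whose CpGs are mostly methylated. Those at promoters usually stay free of methylation, whether or not the gene is transcribed, since proteins that bind unmethylated CpGs and histone marks of open or Polycomb-bound chromatin keep DNA methyltransferases away. Known exceptions are imprinted genes, which are methylated on 1 parental allele, and germline genes, which are methylated in somatic cells. The maintenance enzyme DNMT1 copies methylation at each division, so an island that has gained methylation tends to pass it on to daughter cells.

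The sequences of 7 bins are printed as examples and were not picked as typical of these islands. All are of the mm9 build and on its forward strand, in lower case with each CpG in capitals, and none is longer than its 200-bp bin. The Hoxa3 bin (chr6:52163401-52163600) lies upstream of both annotated Hoxa3 starts and had the largest change in ISCs within its gaining run. The Mab21l2 bin (chr3:86350401-86350600) is in the only exon of its gene and also gained. The Hoxb5 bin (chr11:96165201-96165400), in exon 1, lost methylation in ISCs, and the Irf2bp1 bin (chr7:19591001-19591200), in the only exon, lost it in both populations. The Plagl1 bin (chr10:12810201-12810400), upstream of an imprinted gene, differed most between populations at P0 within its run. The Asz1 bin (chr6:18059001-18059200), just upstream of a germline gene, was methylated throughout, and the Lgr5 bin (chr10:115024801-115025000), just upstream of the stem cell gene that the reporter tags, was nearly free of it in 3 libraries.
Hoxa3: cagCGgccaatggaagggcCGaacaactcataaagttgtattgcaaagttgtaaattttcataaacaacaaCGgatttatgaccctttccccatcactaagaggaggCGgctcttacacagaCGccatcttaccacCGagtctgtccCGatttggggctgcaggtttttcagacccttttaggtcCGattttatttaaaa
Mab21l2: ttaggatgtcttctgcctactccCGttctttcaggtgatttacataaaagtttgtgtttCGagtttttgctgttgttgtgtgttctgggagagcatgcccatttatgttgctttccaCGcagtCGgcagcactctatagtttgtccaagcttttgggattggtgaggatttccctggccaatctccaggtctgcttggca
Hoxb5: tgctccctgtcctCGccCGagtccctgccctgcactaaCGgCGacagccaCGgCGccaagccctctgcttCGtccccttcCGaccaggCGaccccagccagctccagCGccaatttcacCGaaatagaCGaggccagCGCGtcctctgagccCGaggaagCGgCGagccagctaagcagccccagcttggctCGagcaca
Irf2bp1: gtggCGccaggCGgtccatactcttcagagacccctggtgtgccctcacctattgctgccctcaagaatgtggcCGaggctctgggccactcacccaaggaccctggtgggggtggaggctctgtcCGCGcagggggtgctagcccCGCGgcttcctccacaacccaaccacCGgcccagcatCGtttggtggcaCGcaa
Plagl1: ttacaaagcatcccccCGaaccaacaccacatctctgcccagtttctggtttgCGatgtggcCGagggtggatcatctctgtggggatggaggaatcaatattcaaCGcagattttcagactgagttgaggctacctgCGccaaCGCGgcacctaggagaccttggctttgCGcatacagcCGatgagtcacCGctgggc
Asz1: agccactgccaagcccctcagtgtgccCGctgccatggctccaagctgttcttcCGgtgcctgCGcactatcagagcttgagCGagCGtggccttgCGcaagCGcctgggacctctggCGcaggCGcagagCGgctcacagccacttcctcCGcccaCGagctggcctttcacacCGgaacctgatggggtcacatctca
Lgr5: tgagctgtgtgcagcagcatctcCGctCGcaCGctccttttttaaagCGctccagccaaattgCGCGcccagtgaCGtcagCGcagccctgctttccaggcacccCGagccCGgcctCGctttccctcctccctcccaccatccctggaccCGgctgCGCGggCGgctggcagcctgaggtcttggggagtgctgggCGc
The bins held 8 CpGs (Hoxa3), 4 (Mab21l2), 18 (Hoxb5), 10 (Irf2bp1), 10 (Plagl1), 13 (Asz1) and 16 (Lgr5). Their GC content was 44.5% (Hoxa3), 46% (Mab21l2), 67% (Hoxb5), 66% (Irf2bp1), 55% (Plagl1), 65.0% (Asz1) and 67.5% (Lgr5).

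The 5′ CGIs had very little methylation in every library. The mean level over bins (methylated calls in percent of all calls of a bin, each bin weighted equally) was 5.08% in ISC P0, 4.99% in differentiated P0, 5.43% in ISC P21 and 5.28% in differentiated P21, and the medians were 0.478%, 0.498%, 0.556% and 0.517%. By comparison, in ISC P0 the mean was 47.2% in CGIs of last exons, 27.6% in CGIs of gene bodies, 61.1% in CGIs outside genes and 77.0% over all bins. Of the 5′ CGI bins, 43007 (87.7%) were under 10% in all 4 libraries, 1479 (3.02%) were at 50% or more in all 4, and the other 4566 (9.31%) lay between or crossed a limit. Counted by gene, 10991 of 12441 genes (88.3%) had a level under 5% (mean of the 4 libraries over all calls of their bins) and 319 genes (2.56%) had 50% or more. Bins wholly covered by an island had a mean of 3.63% in ISC P0 and partly covered bins 16.4%. At the rule's limit of 100 bp of cover, bins just inside had a mean of 19.7% in ISC P0 (1079 bins) and bins just outside 20.1% (980 bins).

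**Figure D1:**
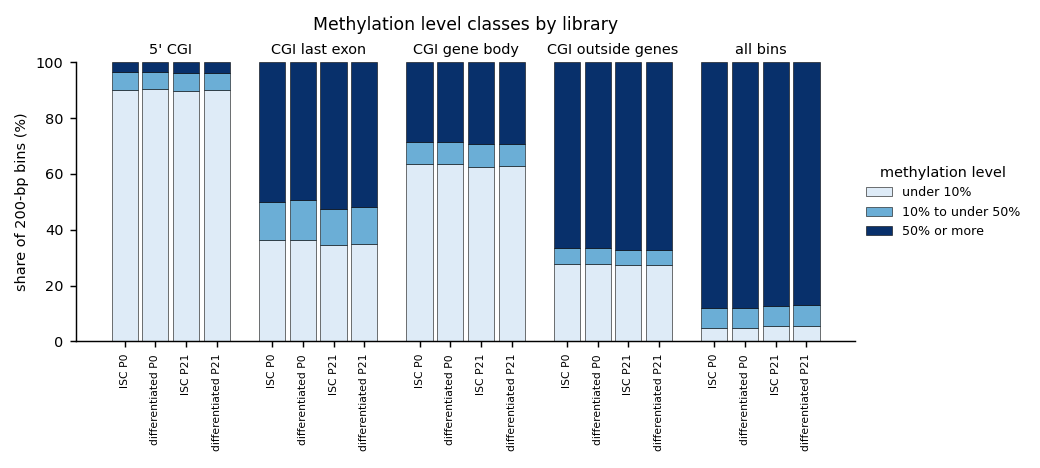
Share of 200-bp bins (%, y axis) at a methylation level under 10%, from 10% to under 50%, and at 50% or more, for 5′ CGI bins, the other CGI classes and all tested bins, 1 bar per library. About 90% of 5′ CGI bins are in the lowest class in each library (89.6% to 90.4%), against 34.4% to 36.3% of last-exon CGI bins.

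The level depended on where in the 5′ region a bin lay and on its CpG number. In ISC P0 the mean was 2.61% in the 200 bp upstream of the TSS and 2.54% in the 200 bp downstream, 6.56% at 1000 to 800 bp upstream, 10.99% at 800 to 1000 bp downstream and 29.6% in exon 1 beyond 2000 bp. The other 3 libraries had the same course, with differentiated P21 at 2.69% in each of the bins beside the TSS and 32.0% beyond 2000 bp. Bins with under 5 CpGs had a mean of 15.4% in ISC P0, and bins with 20 or more CpGs had 0.873%. The 3620 bins that served 2 or more genes, such as those between divergent genes, had a mean of 1.65% in ISC P0 against 5.35% for bins of 1 gene. The 4363 bins of single-exon genes, whose exon 1 is also their last exon, had 16.8% against 3.94% for genes of 2 or more exons.

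**Figure D2:**
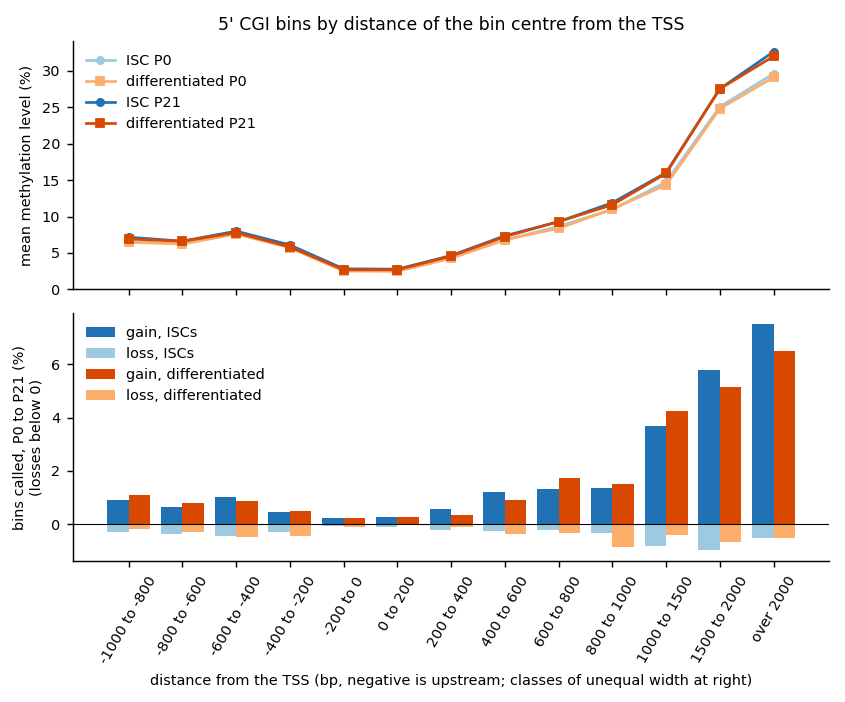
Upper panel, mean methylation level (%) of 5′ CGI bins by distance of the bin centre from the TSS (bp) in each library; lower panel, share of bins (%) called as gaining (above 0) or losing (below 0) methylation from P0 to P21 in both populations. Levels and shares of called bins are lowest beside the TSS and highest beyond 2000 bp in exon 1, where 7.50% of bins gained in ISCs.

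Sequence went along with these levels. The GC content was 63.1% ± 10.2 (SD over bins) in bins low in all 4 libraries and 54.4% ± 8.31 in bins at 50% or more in all 4, and the ratio of observed to expected CpG was 0.766 and 0.564. The letters GGGCGG, the GC box bound by Sp1-type factors, stood on either strand in 45.7% of the low bins, 12.8% of the high bins and 41.7% of all 5′ CGI bins of this length. CCAAT, the box bound by NF-Y, stood in 19.03%, 22.7% and 19.3%, and neither motif contains the other. The shares describe letters only, and GGGCGG is itself rich in G and C.

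To see how the islands changed between birth and weaning, P21 was compared with P0 within each population. The mean level of 5′ CGI bins was higher at P21 by 0.348 percentage points in ISCs (95% counting interval 0.327 to 0.369) and by 0.285 points in differentiated cells (0.267 to 0.303), on 19 of 19 autosomes in each, while the median bin changed by 0 and 0.00061 points. These counting intervals, and those below, take calls as independent, although calls of the same read are not, and so are too narrow. All autosomes of a comparison share any offset between its libraries. In ISCs the mean of the other CGI classes was higher at P21 by more, 2.37 points in last exons, 0.865 in gene bodies and 0.691 outside genes, while over all bins the mean moved by -0.271 points in ISCs and -0.723 in differentiated cells. With every call weighted equally instead of every bin, the change in 5′ CGIs was 0.000432 points in ISCs and 0.144 points in differentiated cells, so the mean change in ISCs rested on how bins were weighted. The same weighting took ISCs from 47.8% to 48.7% in last-exon CGIs, but from 25.5% to 24.8% in gene-body CGIs and from 51.8% to 50.9% in CGIs outside genes, against the direction of their bin means.

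Calls of methylated and unmethylated cytosines were compared in each bin with Fisher's exact test (two-sided), and a bin counted as called at a Benjamini-Hochberg adjusted p below 0.05 over all tested bins together with a difference of more than 15 points. In ISCs, 431 of 49052 5′ CGI bins (0.879%) were called with age, against 2.56% of all bins tested, and in differentiated cells 421 (0.858%), against 2.86%. With calls thinned to the lowest library, 359 5′ CGI bins were called in ISCs and 265 in differentiated cells. The called share was 7.23% in last-exon CGIs, 2.33% in gene-body CGIs and 1.53% in CGIs outside genes in ISCs. In 5′ CGIs 321 bins gained and 110 lost in ISCs, which is 74.5% gains (exact binomial interval 70.1% to 78.5%), and 306 gained and 115 lost in differentiated cells (72.7% gains, 68.2% to 76.9%). These intervals take bins as independent and are too narrow where adjacent bins change together. In ISCs the bins formed 240 runs of gains and 104 runs of losses. In ISCs gains were 84.96% of called bins in last-exon CGIs, 79.9% in gene-body CGIs and 72.9% in CGIs outside genes, and over all bins they were 42.1% in ISCs and 34.8% in differentiated cells. A bin under 15% at P0 cannot be called as a loss, nor one within 15 points of full methylation as a gain. The median ISC P0 level was 0.478% in 5′ CGI bins and 85.7% over all bins, so the starting level limits the direction of calls differently in each. Calls of 1 read are not independent, and after dividing the calls of each bin by its number of CpGs before the test, 1 bin in ISCs and 12 in differentiated cells were called.

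Most called bins were not fully unmethylated at birth. The median gaining bin went from 21.5% to 51.9% in ISCs and from 25.1% to 50.2% in differentiated cells, and the median losing bin from 37.4% to 11.1% and from 38.0% to 12.9%. Within 200 bp of the TSS on either side, 28 (upstream) and 29 (downstream) of the 321 gaining bins in ISCs were found, a share of 0.257% and 0.292% of the bins there. Exon 1 at 500 bp or more from the TSS held 93 of the 321 gains in 3605 bins, where 3.05% of bins were called, and 2.80% of bins of single-exon genes were called against 0.691% in genes of 2 or more exons. The called bins fell in 336 genes in ISCs, of which 235 held a gain, 104 a loss and 3 both, and in 347 genes in differentiated cells. In ISCs the gains formed 240 runs of adjacent bins, 195 of them of 1 bin, and the losses 104 runs, 99 of them of 1 bin.

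The longest gaining runs in ISCs were those of Mab21l1 and Mab21l2, single-exon genes of the Mab-21 family, which acts in embryonic eye and body wall development. The Mab21l1 run (chr3:55586401-55588000, 8 bins, 78 CpGs, in the exon from 69 bp to 1469 bp past the TSS) was at 19.2% in ISC P0 (282 of 1470 calls), 32.7% in differentiated P0 (1102 of 3367), 59.0% in ISC P21 (1093 of 1852) and 49.98% in differentiated P21 (1325 of 2651). Both P21 libraries were above both P0 libraries, all 8 bins were called in ISCs (largest adjusted p = 4.66e-05, Fisher's exact test) and 4 in differentiated cells. The Mab21l2 run (chr3:86350401-86352000, 8 bins, 97 CpGs) was at 40.9% in ISC P0 (657 of 1605 calls), 36.0% in differentiated P0 (1678 of 4657), 76.6% in ISC P21 (1659 of 2166) and 72.7% in differentiated P21 (2999 of 4126). All 8 bins were called in both populations, and the gains of 35.7 and 36.7 points were nearly equal. The printed Mab21l2 bin, the farthest from the TSS, went from 24.7% to 80.7% in ISCs.

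Dnajb3, a single-exon gene of the DnaJ family of chaperone partners, had low methylation around its TSS at P0 between methylated flanks. Its 5-bin run (chr1:90101601-90102600) was at 27.8% in ISC P0 (360 of 1297 calls), 21.7% in differentiated P0 (692 of 3195), 60.7% in ISC P21 (885 of 1459) and 53.3% in differentiated P21 (1368 of 2566). The bin at the TSS went from 5.79% to 45.9% in ISCs and from 4.28% to 35.4% in differentiated cells, and the flanking upstream bin, at 80.5% to 87.0% in the 4 libraries, was not called. The run upstream of Gp1bb, which encodes a chain of the platelet receptor for von Willebrand factor, had 4 bins (chr16:18621601-18622400) and was at 26.7% in ISC P0, 22.8% in differentiated P0, 62.1% in ISC P21 and 49.6% in differentiated P21. All 4 of its bins were called in both populations.

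The next gains by number of bins in differentiated cells were in Itpripl2, Zfp579 and 1700106J16Rik. In the exon of Itpripl2 (chr7:125633401-125634600, 6 bins) the level was 47.4% in ISC P0, 36.2% in differentiated P0, 65.0% in ISC P21 and 55.5% in differentiated P21, with 6 bins called in differentiated cells and 4 in ISCs. In Zfp579, a zinc finger gene (chr7:4945401-4946400, 5 bins), it was 68.9%, 58.8%, 80.6% and 79.3% in the same order, with 5 and 1 bins called. In 1700106J16Rik (chr11:88107601-88108400, 4 bins) it was 23.0%, 30.3%, 66.1% and 62.4%, with 4 and 3 bins called. In each of these runs both P21 libraries were above both P0 libraries. With bins shifted by 100 bp the Itpripl2 gain in differentiated cells was 14.95 points (from 19.3), under the 15 points of a call.

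The Hox genes, which encode homeobox factors that set position along the body axis, held both gains and losses. This family was taken as a whole after the values of its longest runs were known. It had 36 genes with 207 5′ CGI bins, of which 27 genes were under 5% in all 4 libraries and 28 genes had no called bin in any comparison. In ISCs 13 of its bins gained and 7 lost with age (9.66% called, against 0.879% of all 5′ CGI bins), in 5 and 2 genes, and in differentiated cells 12 gained and none lost (5.80% called, against 0.858%), in 5 genes. The mean level was 5.43% in ISC P0, 5.04% in differentiated P0, 7.10% in ISC P21 and 6.84% in differentiated P21.

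Hoxa3 was almost free of methylation at birth. Its run (chr6:52163001-52163800, 4 bins, 40 CpGs) was at 1.98% in ISC P0 (13 of 658 calls), 3.08% in differentiated P0 (50 of 1621), 41.6% in ISC P21 (353 of 848) and 23.9% in differentiated P21 (318 of 1329). All 4 bins were called with age in both populations, and 3 of them were also lower in differentiated cells than in ISCs at P21, with a difference of -19.97 points over those bins together (largest adjusted p = 0.034, Fisher's exact test). The Hoxd3 run, in exon 1 (chr2:74565001-74565800, 4 bins), was at 17.9% in ISC P0 (151 of 843 calls), 25.8% in differentiated P0 (341 of 1320), 64.4% in ISC P21 (529 of 822) and 60.03% in differentiated P21 (697 of 1161). The Hoxb2 bins were at 9.43%, 23.5%, 39.7% and 30.9% in the same order, with 3 bins gaining in ISCs and 1 in differentiated cells. Hoxa2 was at 50.8%, 35.2%, 55.4% and 52.9%, with 2 bins gaining in differentiated cells and none called in ISCs.

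Hoxb5 had the longest loss in ISCs, and Hoxd10 had 2 of the losing runs of 2 bins. The Hoxb5 run, in the distal part of exon 1 (chr11:96164801-96165400, 3 bins), was at 47.1% in ISC P0 (332 of 705 calls), 30.6% in differentiated P0 (650 of 2121), 14.4% in ISC P21 (138 of 960) and 24.2% in differentiated P21 (432 of 1784). ISC P0 stood highest and ISC P21 lowest, with both differentiated libraries between them, and no bin of the run was called with age in differentiated cells. The Hoxd10 run at chr2:74530401-74530800 (2 bins, exon 1) was at 47.7% in ISC P0 (216 of 453 calls), 24.3% in differentiated P0 (280 of 1150), 15.6% in ISC P21 (78 of 500) and 23.7% in differentiated P21 (204 of 861). A second Hoxd10 run, nearer the TSS (chr2:74529401-74529800, 2 bins), was at 21.3%, 8.44%, 2.29% and 7.66% in the same order. The values thus again had ISC P0 highest and ISC P21 lowest.

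**Figure D3:**
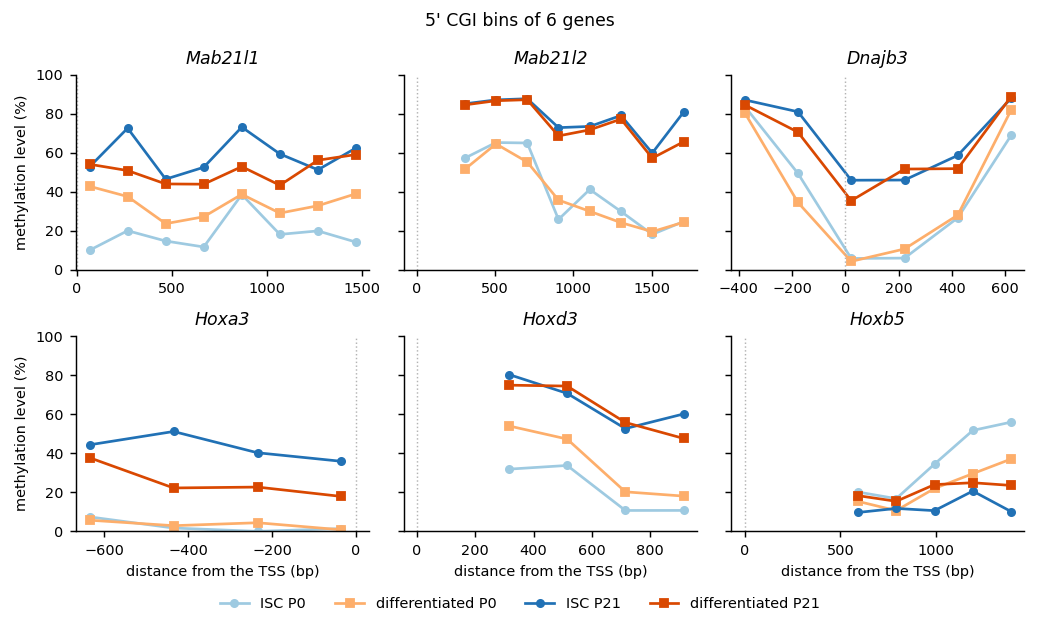
Methylation level (%) of each 5′ CGI bin against the distance of its centre from the TSS (bp; for Hoxa3, from the farther downstream of 2 annotated starts) in the 4 libraries, for 6 genes. In Mab21l1, Mab21l2, Hoxa3, Hoxd3 and the bins of Dnajb3 called in ISCs both P21 lines lie above both P0 lines, while in Hoxb5 ISC P0 is highest and ISC P21 lowest at 992 to 1392 bp.

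Other losing runs had 4 bins or fewer. Irf2bp1, a single-exon gene for a corepressor that binds IRF2, had the longest loss in differentiated cells (chr7:19590601-19591400, 4 bins), at 19.9% in ISC P0 (107 of 538 calls), 27.2% in differentiated P0 (522 of 1919), 3.76% in ISC P21 (23 of 612) and 6.60% in differentiated P21 (of 1531 calls). All 4 bins were called in differentiated cells and 2 in ISCs. The olfactory receptor gene Olfr279 (chr15:98328001-98328400, 2 bins) was at 53.1%, 50.9%, 30.3% and 28.4% in the same order, with both bins called in both populations. Ppa2, a mitochondrial pyrophosphatase, was at 53.4%, 51.3%, 27.0% and 23.7% over 2 bins upstream of its TSS. Gas6, a ligand of the TAM receptor kinases, was at 18.9%, 22.8%, 1.75% and 4.55% over 2 upstream bins. With shifted bins the losses in differentiated cells were -14.3 points in Ppa2 (from -27.6) and -11.3 in Gas6 (from -18.2). In Irf2bp1, Olfr279, Ppa2 and Gas6 both P21 libraries were below both P0 libraries. Sephs2, a selenophosphate synthetase, and Gm10071, a predicted gene, went from 34.2% to 15.03% and from 32.9% to 16.01% in differentiated cells, where 2 bins of each were called. With shifted bins these differences were -13.97 points in Sephs2 and -14.85 points in Gm10071, under the 15 points of a call. A bin of 2900097C17Rik went from 90.5% to 18.2% in ISCs, but rested on 21 and 11 calls.

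**Figure D4:**
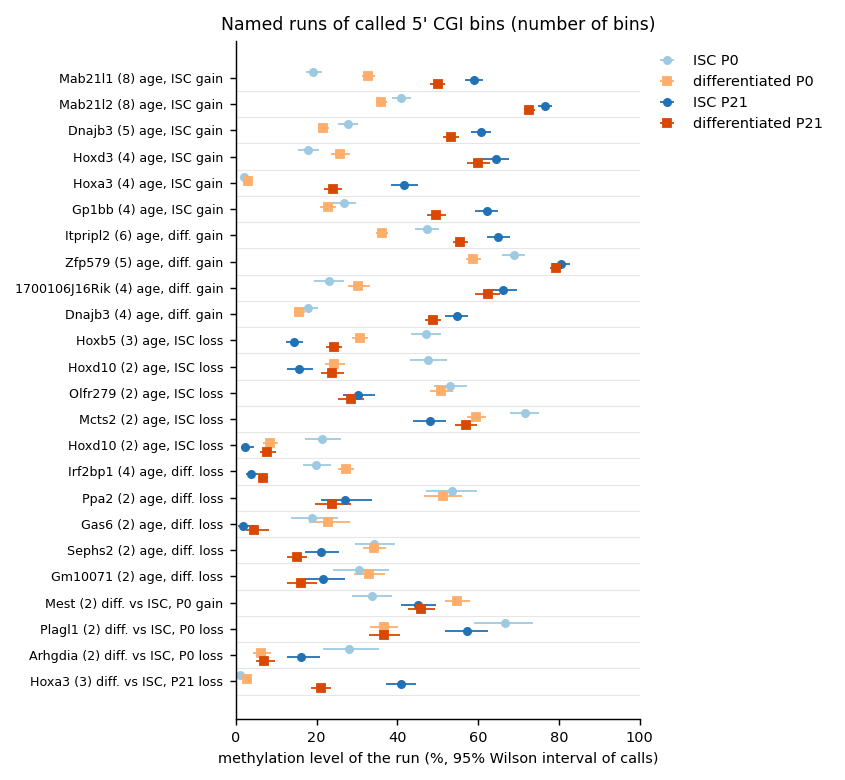
Methylation level (%, x axis) of the named runs of 2 or more called 5′ CGI bins in the 4 libraries, with 95% Wilson intervals of the calls; each row gives the gene, the number of bins and the comparison that named the run. The intervals take calls as independent and are too narrow. Among the gains with age both P21 libraries lie above both P0 libraries in every row shown, and the Hoxb5 and Hoxd10 losses have ISC P0 apart from the other 3 libraries.

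The comparisons of P21 with P0 in ISCs and in differentiated cells share no library, and their calls were set side by side. At each age the ISCs and differentiated cells came from pooled mice, so the comparisons may share animals and are not independent. The same bin was called in the same direction in 173 cases, which is 40.1% of the 431 bins of ISCs and 41.1% of the 421 bins of differentiated cells, and in opposite directions in 2. Of the 321 gains in ISCs, 150 (46.7%, exact interval 41.2% to 52.4%) were also called as gains in differentiated cells and 302 had a higher level there at P21. Of the 110 losses, 23 (20.9%, 13.7% to 29.7%) were called in both and 84 had a lower level in differentiated cells at P21. Both intervals take bins as independent. The median change in differentiated cells was 15.4 points at the ISC gains and -8.54 points at the ISC losses. Over all CGI bins the shares were alike, at 45.9% of gains and 23.5% of losses in ISCs, while over all bins they were 23.8% and 45.4%.

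The difference between the age changes was tested directly with a Wald test of the age by population term of the log odds in each bin. It passed, with a difference of more than 15 points, in 55 of the 5′ CGI bins (0.112%), against 0.144% of all bins tested. The change was higher in differentiated cells in 37 of them and in ISCs in 18. Of those 37 bins, which the test picks for a high ISC P0 or differentiated P21, ISC P0 was the highest library in 23 and differentiated P21 in 14. All 3 bins of the Hoxb5 run passed, as did both bins of the distal Hoxd10 run, 1 of 2 bins of the nearer one, and 3 of 8 bins of Mab21l1, where the gain was larger in ISCs.

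To see how far the islands differed between the sorted populations, differentiated cells were compared with ISCs at each age. The paper reports EGFP-negative crypts in adult mice carrying this reporter. Differentiated cells, sorted as EGFP-negative, may therefore include stem cells without the label. The mean 5′ CGI level was lower in differentiated cells at both ages, with a difference of -0.086 points at P0 (95% counting interval -0.106 to -0.0663) and of -0.149 points at P21 (-0.169 to -0.130), and on 0 of 19 autosomes was it higher. The median bin differed by 0 at both ages. The median level in differentiated cells was 0.498% against 0.478% in ISCs at P0, and 0.517% against 0.556% at P21. With every call weighted equally the differences of the mean were -0.820 and -0.676 points. Each comparison sets 1 library against 1 other, so the autosomes share any offset between the libraries. At P0 110 bins (0.224%) were called, 40 higher and 70 lower in differentiated cells, against 0.508% of all bins tested, and at P21 54 bins (0.110%), 17 higher and 37 lower, against 0.182%. After dividing calls by CpGs, none was called at either age. With calls thinned to the lowest library, 42 bins were called at P0 and 27 at P21. These comparisons share libraries with those of age.

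At P0 the longest runs had 2 bins. Mest, an imprinted gene expressed from the paternal allele, had 2 bins around its TSS (chr6:30687801-30688200) at 33.6% in ISC P0 (117 of 348 calls), 54.9% in differentiated P0 (563 of 1026), 45.2% in ISC P21 (222 of 491) and 45.8% in differentiated P21 (386 of 842). Plagl1, an imprinted zinc finger gene, had 2 upstream bins (chr10:12810201-12810600) at 66.7% (102 of 153 calls), 36.6% (276 of 754), 57.1% (188 of 329) and 36.7% (227 of 619) in the same order, so that both differentiated libraries were below both ISC libraries. In Plagl1 the mean of the bin differences at P0 was -25.4 points, against -30.1 over all calls of the run. Arhgdia had 2 upstream bins (chr11:120443201-120443600) at 28.0%, 6.11%, 16.2% and 7.05%, with the same order of populations. The distal Hoxd10 run was lower in differentiated cells than in ISCs at P0 by 23.3 points. A single bin upstream of Pom121l2 was higher in differentiated cells at P0, at 54.2% against 3.85%, on fewer than 50 calls per library. With bins shifted by 100 bp, over a span longer by 200 bp, the difference of 50.3 points in Pom121l2 was 2.03, and that of 21.3 points in Mest was 12.7.

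At P21 the calls were nearly all of 1 bin. Besides Hoxa3, single bins were lower in differentiated cells in Ankrd34b (21.7% against 68.2%) and in Etaa1, an activator of the ATR kinase (6.06% against 51.6%). The bin upstream of Etaa1, which held 2 CpGs, stood at 0 of 27 calls in differentiated P0 and at 50% in ISC P0. Both differentiated libraries were thus below both ISC libraries, on 26 to 33 calls per library. A bin shared by the overlapping genes Gm9857 and 4921515J06Rik was at 50.2% in ISC P0, 44.1% in differentiated P0, 13.8% in ISC P21 and 67.1% in differentiated P21. Bins upstream of Bmp8b, a bone morphogenetic protein, and of Azi1, a centrosomal protein, were higher in differentiated cells at P21, at 75.4% against 29.6% and at 71.1% against 26.9%. These single bins did not hold their size when bins were shifted by 100 bp and so averaged with their flanks. The difference at P21 was then -2.01 points in Etaa1, -18.4 in Ankrd34b, 12.1 in Bmp8b, 16.4 in Azi1 and 31.3 in Gm9857.

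Gene lists were described by their counts, beside the 0.879% (ISCs) and 0.858% (differentiated cells) of 5′ CGI bins called with age. Of 14 housekeeping genes (45 bins), 13 had a level under 5% and none had a called bin. Rplp0, a ribosomal protein gene, was highest at 8.12% to 16.02%, and Tbp, the TATA-binding protein, went from 0.734% to 2.93% in ISCs without a call. Of 18 transcription factors of intestinal identity (111 bins), 17 were under 5%, and 1 bin of Gata5 gained in ISCs, the gene going from 4.98% to 8.29%. The 15 genes of the DNA methylation machinery (63 bins) had no called bin with age, and Tet3, which oxidizes methylcytosine, was highest at 5.15% to 12.3%. Of the genes followed up by the study that were looked up here, 6 had a 5′ CGI bin (24 bins), and these had no called bin, with Adamtsl5 highest at 11.6% to 18.4% and Mif, a cytokine, at 1.31% to 5.70%.

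Genes of the Wnt pathway and of stem cells (33 genes, 190 bins) had 3 gaining bins and no losing bin in ISCs, and 4 gaining and 1 losing bins in differentiated cells. Sfrp4, a secreted Wnt inhibitor, was at 10.3% in ISC P0, 10.1% in differentiated P0, 18.8% in ISC P21 and 20.3% in differentiated P21, and had 1 gaining bin in ISCs and 2 in differentiated cells. Fzd7, a Wnt receptor, and Notum, which inactivates Wnt ligands, had 1 gaining bin in each population, at gene levels that did not exceed 4.45%. Wnt9b, a ligand, had the losing bin. Lgr5 itself had no called bin. Its printed bin was at 0.592% in ISC P0 (1 of 169 calls), 0.665% in differentiated P0 (5 of 752), 0% in ISC P21 (0 of 296) and 6.74% in differentiated P21 (31 of 460). Differentiated P21 was thus above the other 3 libraries, by less than the 15 points that a call required. The bin holds 16 CpGs and calls of 1 read are not independent, so the 31 methylated calls can stem from few reads. Lgr5 was also added after its values were seen.

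Germline genes were the most methylated list. Of 32 genes (102 bins), 24 were at 50% or more and the median gene level was 82.3%, with no called bin in ISCs and 1 gain in differentiated cells, in Ddx4, an RNA helicase of germ cells (69.7% to 81.0% over the gene). Asz1, which acts in transposon silencing in germ cells, was at 94.3% to 97.4% in the 4 libraries, and its printed bin at 95.3% to 97.5%. Mei1, a meiosis gene, was lower, at 34.3% in ISC P0, 20.6% in differentiated P0, 23.4% in ISC P21 and 28.1% in differentiated P21. Among genes with 5 or more bins, the 8 of the highest level, the 2 annotated Flg genes, Fat1, Gm8994, 4932442E05Rik, Kcnv2, Orai2-ps and Trim52, lay between 92.3% and 97.0% in each library and had no called bin. Flg encodes the skin barrier protein filaggrin, Fat1 a giant cadherin and Kcnv2 a potassium channel subunit.

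Imprinted genes lay between. The 24 genes had 118 bins with a median bin level of 43.2% in ISC P0, 36.6% in differentiated P0, 43.8% in ISC P21 and 41.9% in differentiated P21. In ISCs 9 of these bins gained and 8 lost (14.4% called), and in differentiated cells 8 gained and 3 lost (9.32% called). The test takes calls of 1 read as independent, although with methylation on 1 parental allele they may be alike throughout a read. Unequal sampling of the alleles was not tested. Gnas, which encodes a G protein subunit, was at 55.4% in ISC P0, 49.3% in differentiated P0, 55.2% in ISC P21 and 53.4% in differentiated P21, with 3 gaining bins and 1 losing bin in ISCs. Igf2r, a receptor that clears IGF2, was at 49.6%, 35%, 42.2% and 45.4%, Nnat, a membrane proteolipid, at 71.6%, 77.7%, 80.6% and 77.5%, and Nap1l5 at 65.8%, 61.8%, 67.8% and 67.03%, in the same order. Mcts2, an imprinted retrogene of the same list, lost in 2 bins in ISCs (chr2:152512801-152513200), at 71.6%, 59.6%, 48.0% and 57.1%.

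The other lists held few calls. Developmental regulators (82 genes, 540 bins) had 3 gaining and 7 losing bins in ISCs, all losses in Hoxb5 and Hoxd10 (the list leaves out Hoxa3, Hoxd3 and Hoxb2, whose bins gained), 3 gains in differentiated cells, and 8 bins lower in differentiated cells than in ISCs at P0 (against 0.224% of all 5′ CGI bins called at P0, 70 of them lower), and 76 of the genes were under 5%. Of genes known to be hypermethylated in colorectal cancer (43 genes, 219 bins), 38 were under 5%; 2 bins gained in ISCs, in Bcat1 and Gata5, 1 lost, in Sst, and 1 gained in differentiated cells, in Mgmt, a DNA repair gene (6.81% to 17.4% over the gene). Among 31 glycosylation genes (133 bins), B3gnt7 gained in 1 bin of each population, from 2.14% to 8.13% over the gene in ISCs, and Fut4, a fucosyltransferase, had 1 gaining bin in differentiated cells at a gene level of 33.2% to 41.2%. Over the gene, Fut4 went from 41.2% to 37.3% in differentiated cells, against the direction of that bin. Among 27 lineage and defence genes (106 bins), 1 bin of Sct, the hormone secretin, gained in ISCs and 2 in differentiated cells, where the gene went from 6.62% to 17.7%, and 1 bin of the chloride channel gene Cftr lost in each population.

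**Figure D5:**
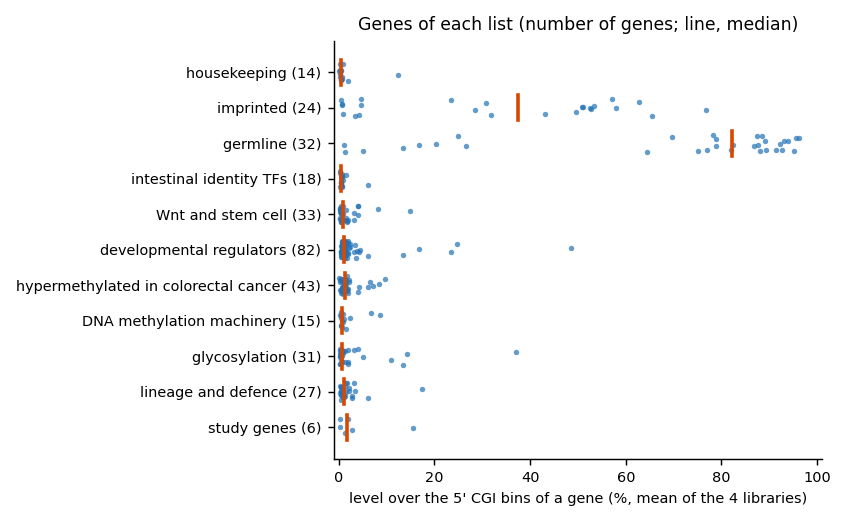
Methylation level over the 5′ CGI bins of each gene (%, mean of the 4 libraries, x axis) for the genes of 11 lists; each point is a gene, the orange line is the median, and the number of genes is in brackets. The germline list has its median at 82.3%, the imprinted list at 37.4%, and the other 9 lists below 2%.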

How the data were processed

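The authors trimmed the paired-end reads, mapped them to mm9 (Bismark and Bowtie per the submitters' processing notes, versions not given in the sources used here) and deposited, for each library and CpG cytosine, a count of all calls, a count of methylated calls and their ratio as a fraction. Whether duplicate reads were removed is not given in these sources. If they remained, a bin holds fewer molecules than calls and its test is too lenient. The fraction was not used, since levels were computed from the counts.

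Positions at no CpG of the mm9 reference (0.465% to 0.850% per library) were left out, both strands were summed, and calls were summed over 200-bp bins. Bins with at least 2 CpGs and 10 calls in all 4 libraries were tested by Fisher's exact test (numba 0.67.0, checked against scipy 1.17.1) with Benjamini-Hochberg adjustment over all autosomal bins, and called at an adjusted p below 0.05 and more than 15 points. The age by population term had 0.5 added to each count. Genes followed GENCODE M1, and each gene was represented by its transcript with the longest coding sequence, so other TSSs were not used here. The study's list of CGIs was not used. The calling was tested on simulated data with a fixed seed. The simulated calls were independent, so that test could not show the effect of calls that share a read.

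The members, gene lists and tests were chosen with earlier results of these data known. Regions and genes were named by a rule. For age in each population it took 6 gains and 6 losses, and for each comparison of populations 3 and 3, by the number of bins per run and then by the mean difference. It also took the 8 highest genes among those with 5 or more bins, up to 4 genes per list, and genes the study followed up. A list gene with a called bin came first, and otherwise the highest and the one with the largest change in ISCs. A region that the rule named and a gene of the study are not reported here. Hoxb2, the Hox family and Lgr5 were added after their values were seen. Sequences were read from the mm9 reference. The alternatives were a minimum of 20 calls, calls thinned to the lowest library, a limit of 30 points, 15 points with no test, calls divided by CpGs, CGIs of 35 CpGs, bins shifted by 100 bp, bins with over 1000 calls left out, any transcript, bins within 500 bp of the TSS, equal weight of calls, and chromosome X included.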

Additional observations from a re-analysis of the deposited data

Results flagged for a closer look

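The age change differed between populations in 55 5′ CGI bins (0.112%, against 0.144% of all bins tested) by the Wald test of the difference itself. These calls were not recomputed under the alternatives, such as the division of calls by CpGs. The values below are the change in differentiated cells minus that in ISCs, in percentage points. The difference was 26.3 in the Hoxb5 run, 31.4 in the distal and 18.2 in the nearer Hoxd10 run, 21.1 in the Mcts2 run and -22.6 in the Mab21l1 run. It was 103.5 in the bin of 2900097C17Rik, which had 11 to 34 calls per library. In single bins of list genes it was -44.5 in one Gnas bin and 24.4 in another, 23.96 and 23.1 in Igf2r, 21.3 in Ddx4, 19.5 and 17.3 in Mei1 and -20.5 in Ugt8a, a glycosyltransferase gene.

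Chromosome X stood outside the comparisons of the report. Its 1502 5′ CGI bins had a mean level of 20.6% in ISC P0, 20.8% in differentiated P0, 22.4% in ISC P21 and 20.9% in differentiated P21, and 67.3% to 74.1% of them lay between 10% and 50%.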

How the results depend on the processing

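No paired analysis was possible because each group had 1 library, so that no groups shared 2 replicate numbers. An additive fit of age and population over the 4 libraries was not run. The signs of the 4 mean changes held under every alternative run. Of 107 values recomputed for the comparisons, 56 stayed within their limit, and 51 did not and are given here (the limit was the 95% counting interval for means and shares, and 1.5 times for counts), in the order ISCs with age, differentiated cells with age, P0, P21 where there are 4. The counting intervals take calls or bins as independent and are too narrow. Of the differences in 35 named runs, all 35 stayed within counting error under thinning, and 22 of 35 under shifted bins, whose spans were 200 bp longer. Among those that moved were Pom121l2 (50.3 to 2.03 points), Etaa1 (-45.6 to -2.01), Bmp8b (45.8 to 12.1), Azi1 (44.1 to 16.4), Ankrd34b (-46.4 to -18.4), Gm9857 (53.3 to 31.3), Mest (21.3 to 12.7), Plagl1 (-30.1 to -20.4), Ppa2 (-27.6 to -14.3), Gas6 (-18.2 to -11.3), Sephs2 (-19.2 to -13.97) and Itpripl2 (19.3 to 14.95). With every call weighted equally the mean changes were 0.000432, 0.144, -0.820 and -0.676 points. A limit of 30 points gave 122, 70, 19 and 15 called bins, 78.7% gains in ISCs and 34 bins in both populations, and 15 points with no test gave 901, 738, 530 and 461, 67.3% and 290. Dividing calls by CpGs gave 1, 12, 0 and 0 called bins, 0% gains (the 1 bin in ISCs lost) and 1 bin in both. This test has few counts per bin against the adjustment over all bins. Thinning left 265 bins in differentiated cells with age, 42 at P0 and 27 at P21. CGIs of 35 CpGs gave mean changes of 0.256 and 0.219 with age, 93.8% of bins under 10% in all 4 libraries, 184, 171, 64 and 31 called bins and 69 in both. Any transcript gave mean changes of 0.418 and 0.346, 86.99% low bins and 83 called bins at P21. Within 500 bp of the TSS the mean changes were 0.286, 0.202 and, at P0, -0.0648, with 90.8% low bins, 280 called in differentiated cells with age and 115 in both. Leaving out bins with over 1000 calls gave mean changes of 0.382 and 0.316 and 86.2% low bins, and a minimum of 20 calls gave 88.3% low bins. With chromosome X the mean change was 0.390 in ISCs and -0.188 at P21, with 183 called bins at P0 and 132 at P21. The causes were not tested where the construction of an alternative does not show them. Depth in 5′ CGIs was lowest in the ISC libraries, where the median bin had 185 and 221 calls.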
